A study of Homo sapiens with 15 samples.

Results

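The TGF-beta pathway genes described here are 10 named genes that cover ligands, receptors, a signal transducer and feedback inhibitors. They are the ligands TGFB1, TGFB2, TGFB3 and INHBA, the receptors TGFBR1, TGFBR2 and TGFBR3, the transducer SMAD3, and the feedback genes SMAD7 and SKIL. They were taken by symbol from the deposited tables, which list 60721 gene identifiers; all 10 were found, and all 10 passed the filter on low counts with 17457 genes. RNA was measured by poly(A) sequencing in MCF-10A, a human mammary epithelial line that does not form tumours, grown untreated in medium with EGF, hydrocortisone, cholera toxin, insulin and horse serum. The 15 libraries comprise 5 genotypes of 3 biological replicates: parental cells, cells with an empty vector, and cells edited in NF1 with guide RNA 1, with guide RNA 2, or with both guides. The labels do not say whether an edited line was a clone or a pool, nor whether replicates were separate cultures, so the p-values measure the spread between these libraries.

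TGF-beta ligands are secreted in a latent form held in the matrix, and integrins such as alpha-v beta-6 release them. Active ligand binds the type II receptor TGFBR2, which phosphorylates the type I receptor TGFBR1; TGFBR1 then phosphorylates SMAD2 and SMAD3, which enter the nucleus with SMAD4. Activins, dimers of the INHBA product, signal through their own receptors to the same SMADs. In mammary epithelium the pathway is known for growth arrest and for driving cells toward a mesenchymal state. The edited gene, NF1, makes neurofibromin, which switches RAS proteins off.

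The libraries held 46129559 to 78976917 counts. NF1 was lower in every edited library (26.0 to 51.3 CPM, which are read counts scaled to a common library total) than in every unedited library (115 to 159 CPM). Of 8 mammary epithelial markers 7 had at least 3 counts in every library, a low bar that 7 of 9 fibroblast and mesenchymal markers met too, and CDH1 (E-cadherin) and TP63 varied widely between libraries. Guide 2 replicate 2 stood apart from its group, with CDH1 at 91.4 CPM against 0.0361 and 0.0434 CPM in guide 2 replicates 1 and 3. Parental replicate 2 had CDH1 at 1.79 CPM against 42.9 and 37.8 CPM in the other parental libraries. The main results that rest on guide 2 replicate 2 are given with and without it. Parental replicate 2 alone was left out only in the fits that leave out each library in turn. Fits without both libraries are given at the end, as counts of members called and changes of sign. The summed epithelial markers ran from 1444 to 2029 CPM in guide 1 and from 4190 to 6128 CPM in empty-vector cells. All 8 epithelial markers had negative log2 fold changes in guide 1 against empty vector (median -3.53), and 4 passed the test. The summed fibroblast and mesenchymal markers ran from 2631 to 3177 CPM in guide 1 and from 1744 to 1856 CPM in empty vector, with DCN and LUM called higher and COL1A1 called lower. Endothelial markers summed to 6.52 to 13.4 CPM in guide 1 and 3.00 to 5.37 CPM in empty vector. The difference lay in KDR, with means of 8.45 and 2.325 CPM. PECAM1 had means of 1.42 and 1.34 CPM, and TEK 0.607 and 0.710 CPM. The part of these marker shifts in the guide 1 results was not tested. At least 3 counts in every library were found for 3 of 5 endothelial and 1 of 6 immune markers. Immune markers summed to 3.29 to 7.01 CPM over the 15 libraries.

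Against empty-vector cells, guide 1 cells had lower INHBA (log2 fold change -5.71) and TGFBR1 (-0.84) and higher TGFBR3 (1.23), at an adjusted p under 0.05. In a fit that gives each replicate number a common effect, the INHBA call was lost (edgeR adjusted p = 0.0615). The TGFBR1 and TGFBR3 calls held there. With 1 library left out, the INHBA call held in 11 of 15 fits, TGFBR1 in 12 and TGFBR3 in 15. Guide 2 cells had higher TGFBR3 (0.85), and so did parental cells (0.80), calls that held in 7 and 4 of those 15 fits. Between guides 1 and 2 together and the empty vector no member passed the test. SMAD3 was lower in all 9 edited libraries than in all 6 unedited ones, by 0.31 on the log2 scale, but the test over all genes did not call it. These comparisons share the 3 empty-vector libraries and are not independent of each other.

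**Figure D1:**
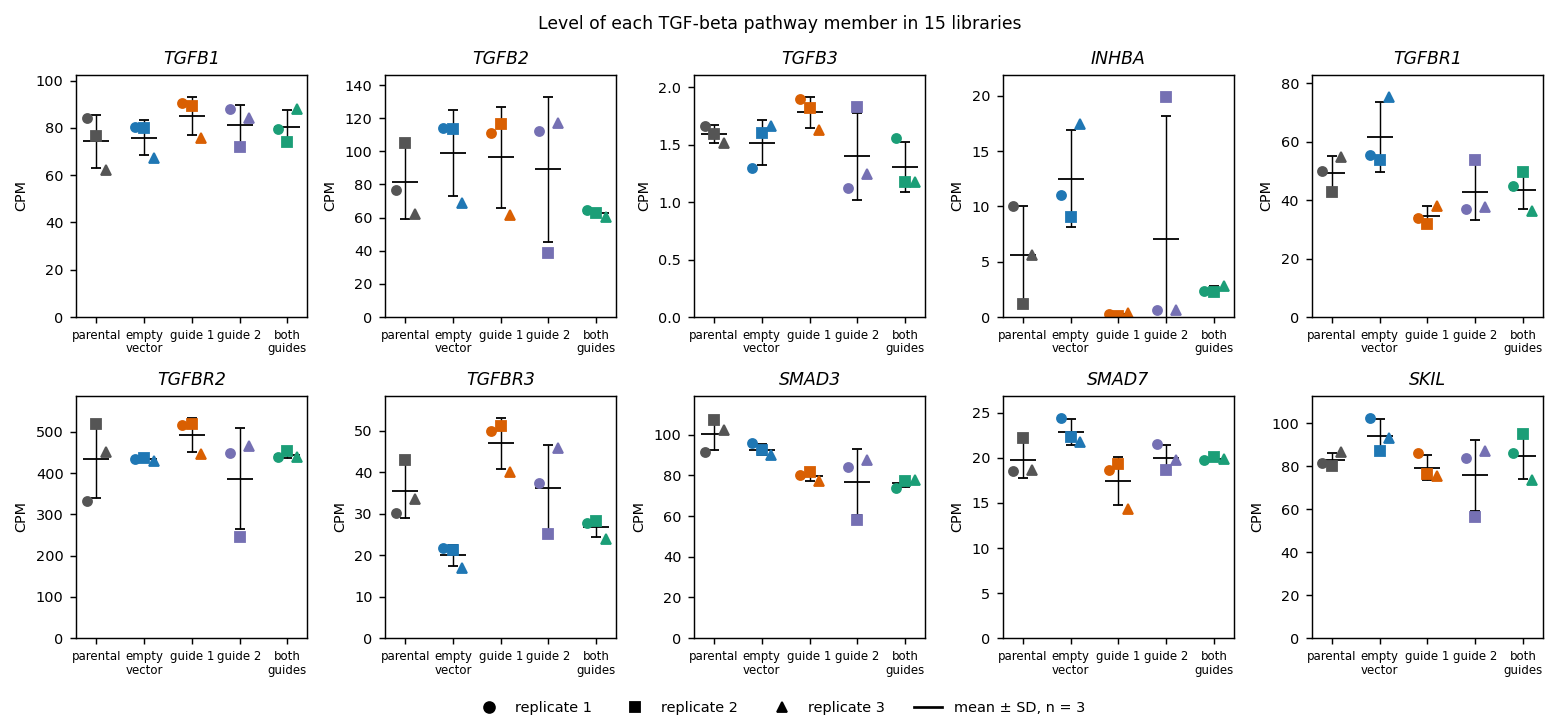
CPM of each TGF-beta pathway gene (y axes, linear from 0) by genotype (x axes); points are single libraries, with the replicate number as their shape, and bars are mean ± SD with n = 3. INHBA in guide 1 sits between 0.0886 and 0.364 CPM; its SD bar in guide 2 would run below 0 and is drawn to the axis.

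The sequences upstream of a listed RefSeq start are shown for the 4 genes on which the comparisons turn, with the motifs found in them. They are the 250 bases before the first RefSeq start listed for each gene (GRCh38.p14), 5′ to 3′ on the gene's strand. For TGFBR3 only the 122 bases outside the first exon of a GENCODE 29 transcript are given. All 10 members had an entry. TGFBR1 had 8 listed starts and SMAD3 had 5, so that another start may be the one used in these cells. All 4 windows lie inside the GENCODE 29 bounds of their genes, whose outermost start is further upstream in each case. Capitals mark the letters TATAAA in INHBA, a SMAD-binding CAGAC on the opposite strand (read as its complement) in TGFBR1, and GC boxes (GGGCGG, or its complement) in TGFBR3 and SMAD3.
INHBA, chr7:41703091-41703340, minus strand: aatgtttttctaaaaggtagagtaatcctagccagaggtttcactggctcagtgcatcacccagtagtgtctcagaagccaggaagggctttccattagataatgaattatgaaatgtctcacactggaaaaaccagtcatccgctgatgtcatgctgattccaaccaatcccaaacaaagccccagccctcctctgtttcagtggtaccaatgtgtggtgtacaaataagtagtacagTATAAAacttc
TGFBR1, chr9:99104863-99105112, plus strand: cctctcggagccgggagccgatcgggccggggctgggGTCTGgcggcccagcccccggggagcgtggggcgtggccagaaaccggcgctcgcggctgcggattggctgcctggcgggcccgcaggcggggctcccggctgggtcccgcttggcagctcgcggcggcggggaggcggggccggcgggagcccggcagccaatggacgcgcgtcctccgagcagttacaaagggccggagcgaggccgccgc
TGFBR3, chr1:91886280-91886401, minus strand: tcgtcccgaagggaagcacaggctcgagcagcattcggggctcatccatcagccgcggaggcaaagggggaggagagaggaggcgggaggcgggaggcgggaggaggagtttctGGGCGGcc
SMAD3, chr15:67065352-67065601, plus strand: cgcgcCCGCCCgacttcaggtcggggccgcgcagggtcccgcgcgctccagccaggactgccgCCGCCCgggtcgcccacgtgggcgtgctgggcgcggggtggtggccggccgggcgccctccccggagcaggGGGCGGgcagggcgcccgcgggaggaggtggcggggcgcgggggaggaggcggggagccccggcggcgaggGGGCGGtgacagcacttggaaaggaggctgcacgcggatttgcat

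The INHBA TATAAA lies at -11 to -6 from the RefSeq start, within the last 18 bases of the window, which lie in an exon of a GENCODE 29 INHBA transcript, so that it is inside that transcript and not upstream of it. TATAAA was found, on either strand, in 10.7% of 35116 RefSeq windows of the same length. The INHBA window was 42.8% G and C, and those of TGFBR1 and SMAD3 were 79.6% and 80.8%. SMAD3 had 4 GC boxes, TGFBR3 had 1 in the bases shown and 2 in its whole window, and 42.6% of all windows had at least 1. CAGAC was present in 38.0% of all windows. Among the members it was found in TGFBR1 and SKIL (1 each) and in TGFB2, TGFB3 and SMAD7 (2 each). All 250 bases of the SMAD7 window lie in exons of GENCODE 29 SMAD7 transcripts, so its 2 lie inside annotated transcripts. The paired SMAD element GTCTAGAC (0.182% of windows), the AP-1 element TGANTCA (6.57%) and the CACCTG E-box bound by ZEB and SNAI factors (17.5%) were not present in these letters in any of the 10 windows, on either strand. No motif overlapped another.

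To compare the members' levels with each other, CPM were divided by the length of each gene's merged exons. In empty-vector cells TGFBR2 was highest at 92.2 ± 0.930 CPM per kb (SD, n = 3), apart from TGFB1 at 23.4 ± 2.28 CPM per kb. TGFB1 and TGFB2 (19.2 ± 5.03 CPM per kb) overlapped between libraries. SKIL followed at 12.1, SMAD3 at 10.2 and TGFBR1 at 8.99 CPM per kb, and the SMAD3 and TGFBR1 libraries overlapped. SMAD7 stood at 4.54, TGFBR3 at 2.29 and INHBA at 1.5 CPM per kb, with the TGFBR3 and INHBA libraries overlapping. TGFB3 was last at 0.309 CPM per kb. TGFBR2 was first in all 5 genotypes, by library values that did not overlap those of the next gene. In guide 1 cells the low end changed order: TGFBR3 (5.39 CPM per kb) stood beside TGFBR1 (5.07 CPM per kb), with overlapping libraries, and INHBA was last at 0.0297 CPM per kb.

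Among the ligands, INHBA (ENSG00000122641, chr7:41667168-41705834 in GENCODE 29), which encodes the beta-A subunit of activin A and inhibin A, varied most. It was at 10.1, 1.17 and 5.61 CPM in parental replicates 1, 2 and 3, at 11, 9.0 and 17.4 CPM in empty vector, at 0.287, 0.0886 and 0.364 CPM in guide 1, at 0.669, 19.9 and 0.622 CPM in guide 2, and at 2.36, 2.28 and 2.82 CPM with both guides. All guide 1 libraries were below all others, guide 2 replicate 2 was the highest of the 15, and parental replicate 2 was the lowest unedited library. Its counts ran from 7 to 1099 per library, and 3 counts were worth 0.038 to 0.065 CPM. In guide 1 against empty vector the log2 fold change was -5.71 (SE 1.33, edgeR adjusted p = 0.0262). In the fit blocked by replicate the adjusted p was 0.0615 and the call was lost. That fit gives each replicate number a common effect over all genotypes. Only for this pair of genotypes did every pair of same-numbered libraries correlate above 0.1. The call was also lost without guide 1 replicate 1, 2 or 3 or without empty vector replicate 3, with adjusted p up to 0.129. The DESeq2 adjusted p was 3.20e-05.

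In the other edited lines the INHBA result depended on guide 2 replicate 2. Guide 2 against empty vector gave a log2 fold change of -0.85 (SE 1.03, adjusted p = 0.715) with it and -4.30 (adjusted p = 0.00217) without it. Both guides against empty vector gave -2.35 (adjusted p = 0.358) with it and -2.36 (adjusted p = 0.0234) without it. All 9 edited libraries against all 6 unedited ones gave -2.38 (SE 0.696, adjusted p = 0.115), and -3.53 (adjusted p = 0.000155) without that library. Guide 1 against parental cells gave -4.52 (adjusted p = 0.162), and an adjusted p of 0.00224 without it. Guide 2 against parental cells turned from 0.33 (adjusted p = 0.987) to -3.10 (adjusted p = 0.0241) when guide 2 replicate 2 was left out. INHBA was high or low in the same libraries as CDH1 and TP63. In guide 1 CDH1 was at 0.0192 to 0.158 CPM and TP63 at 0.142 to 0.203 CPM, and in guide 2 replicate 2 they were at 91.4 and 75.8 CPM. With both guides CDH1 was at 14.8 to 23.4 CPM and TP63 at 7.83 to 11 CPM. In bulk RNA, fewer cells of a type and less RNA per cell cannot be told apart, and the part of the epithelial genes in the INHBA values was not tested.

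**Figure D2:**
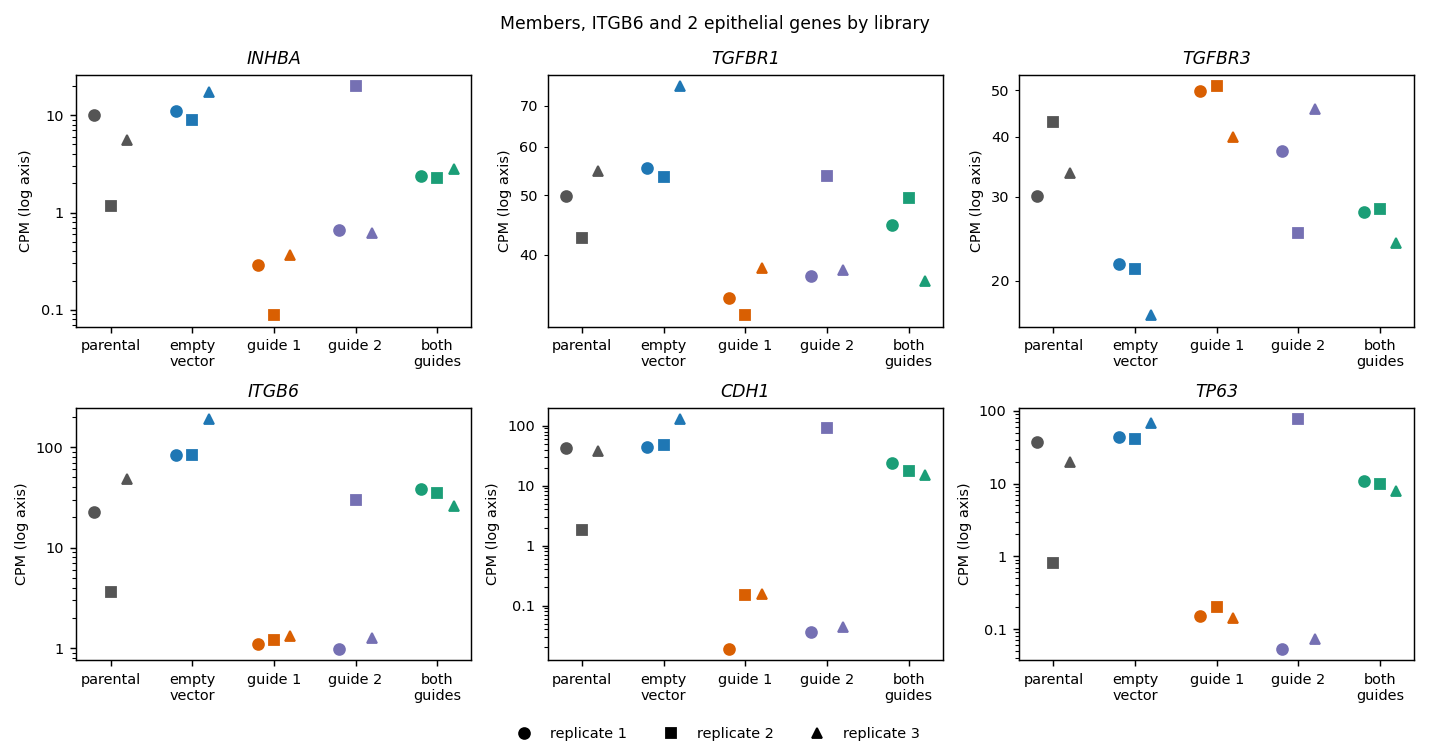
CPM on log axes (y) by genotype (x) for INHBA, TGFBR1, TGFBR3, the integrin gene ITGB6 and the epithelial genes CDH1 and TP63; each point is 1 library, with its replicate number as the shape. Guide 2 replicate 2 is the highest library for INHBA at 19.9 CPM and for TP63 at 75.8 CPM, and lies within the empty-vector range for CDH1.

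The 3 TGF-beta ligand genes were closer to each other across genotypes. TGFB1 (ENSG00000105329), the most widely expressed of the 3 ligands, lay between 62.0 and 90.3 CPM in the 15 libraries with a median of 79.8 CPM, and its values overlapped in every comparison with the empty vector. Its largest log2 fold change against empty vector was 0.16 (guide 1, SE 0.126, adjusted p = 0.505). TGFB3 (ENSG00000119699) lay below INHBA per kb in every empty-vector library, but the order of the pair was not fixed elsewhere: their libraries overlapped in parental cells, in guide 2 and with both guides, and TGFB3 lay above INHBA in guide 1. It was at 1.12 to 1.90 CPM from 62 to 144 counts. Its log2 fold changes against empty vector were 0.22 in guide 1, -0.14 in guide 2 and -0.24 with both guides, none with an adjusted p under 0.57.
TGFB2 (ENSG00000092969) was at 76.4, 105 and 62.0 CPM in parental replicates 1 to 3, at 114, 114 and 68.9 CPM in empty vector, at 111, 117 and 61.3 CPM in guide 1, at 112, 38.8 and 117 CPM in guide 2, and at 64.9, 62.8 and 60.1 CPM with both guides. The low libraries were replicate 3 of the parental, empty-vector and guide 1 groups, guide 2 replicate 2 and all 3 libraries with both guides. The cells with both guides lay below all empty-vector libraries, with a log2 fold change of -0.68 (SE 0.366, adjusted p = 0.455), which is not larger than the spread allows.

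The receptor genes moved in different directions. TGFBR1 (ENSG00000106799, chr9:99104038-99154192), the type I receptor kinase, was at 50.0, 42.7 and 54.8 CPM in parental replicates 1 to 3, at 55.5, 53.6 and 75.4 CPM in empty vector, at 34.0, 31.9 and 38.1 CPM in guide 1, at 36.9, 53.8 and 37.8 CPM in guide 2, and at 44.8, 49.5 and 36.3 CPM with both guides. Guide 1 did not overlap either unedited group, guide 2 overlapped them only through replicate 2, and empty vector replicate 3 was the highest of all. In guide 1 against empty vector TGFBR1 fell by 0.84 on the log2 scale (SE 0.175, adjusted p = 0.0173; DESeq2 0.000376). With the replicate block the adjusted p was 0.0417. The call was lost without guide 1 replicate 1, guide 1 replicate 2 or empty vector replicate 3, with adjusted p up to 0.0875. Guide 2 and both guides gave log2 fold changes of -0.54 (SE 0.174, adjusted p = 0.108) and -0.52 (SE 0.174, adjusted p = 0.179) against empty vector. Without guide 2 replicate 2 these were -0.75 (adjusted p = 0.00756) and -0.54 (adjusted p = 0.0392). All edited against all unedited libraries gave -0.46 (SE 0.111, adjusted p = 0.0633), and -0.53 (adjusted p = 0.00215) without that library.

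TGFBR3 (ENSG00000069702, chr1:91680343-91906335), which encodes betaglycan, a co-receptor that presents ligand and without which TGFB2 binds poorly, was at 30.1, 42.9 and 33.6 CPM in parental replicates 1 to 3, at 21.6, 21.2 and 17.0 CPM in empty vector, at 49.9, 51.1 and 39.9 CPM in guide 1, at 37.4, 25.2 and 45.8 CPM in guide 2, and at 27.8, 28.2 and 23.9 CPM with both guides. The 3 empty-vector libraries were the lowest of the 15, so that every other genotype lay above them without overlap. TGFBR3 rose by 1.23 in guide 1 (SE 0.199, adjusted p = 0.00600), and this call held in all 15 fits with 1 library left out (adjusted p at most 0.0370) and with the replicate block (adjusted p = 0.0192). It rose by 0.85 in guide 2 (SE 0.198, adjusted p = 0.0318). That call was lost when any of 8 libraries was left out: the empty-vector libraries, guide 2 replicates 1 and 3, guide 1 replicate 1, or replicates 1 and 2 with both guides. The adjusted p was then up to 0.158, without empty vector replicate 3. With both guides the log2 fold change was 0.40 (SE 0.198, adjusted p = 0.399).

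TGFBR3 was also higher in parental than in empty-vector cells, by 0.80 (SE 0.198, adjusted p = 0.0398), and both groups carry unedited NF1. This call held in only 4 of 15 fits with 1 library left out, those without guide 1 replicate 3, guide 2 replicate 2, guide 2 replicate 3 or parental replicate 1. The adjusted p was highest at 0.156, without parental replicate 2. Against parental cells TGFBR3 was not called in any edited line: the log2 fold change was 0.42 for guide 1 (SE 0.196, adjusted p = 0.251), with overlapping libraries. All edited against all unedited libraries gave 0.42 (SE 0.128, adjusted p = 0.126), and an adjusted p of 0.00459 without guide 2 replicate 2. It was the 1 member that differed by the test of any difference among the 5 genotypes (adjusted p = 0.0223), where 4.30% of the tested genes passed. That call was lost without guide 1 replicate 1 or 2, replicate 1 with both guides, or any empty-vector library (adjusted p up to 0.0931). Leaving out guide 2 replicate 2 gave 4 members and 23.7% of genes.

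TGFBR2 (ENSG00000163513, chr3:30606502-30694142), the type II receptor kinase, ranged from 246 CPM in guide 2 replicate 2 to 519 CPM in parental replicate 2, with a median of 446 CPM. The empty-vector libraries lay close together (429 to 438 CPM). Guide 1 (446 to 518 CPM) and both guides (439 to 453 CPM) lay above them without overlap, by little, and guide 2 and parental cells overlapped them. Its log2 fold changes against empty vector were 0.18 in guide 1, -0.18 in guide 2 and 0.01 with both guides (each SE 0.204), with adjusted p from 0.661 to 0.995.

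**Figure D3:**
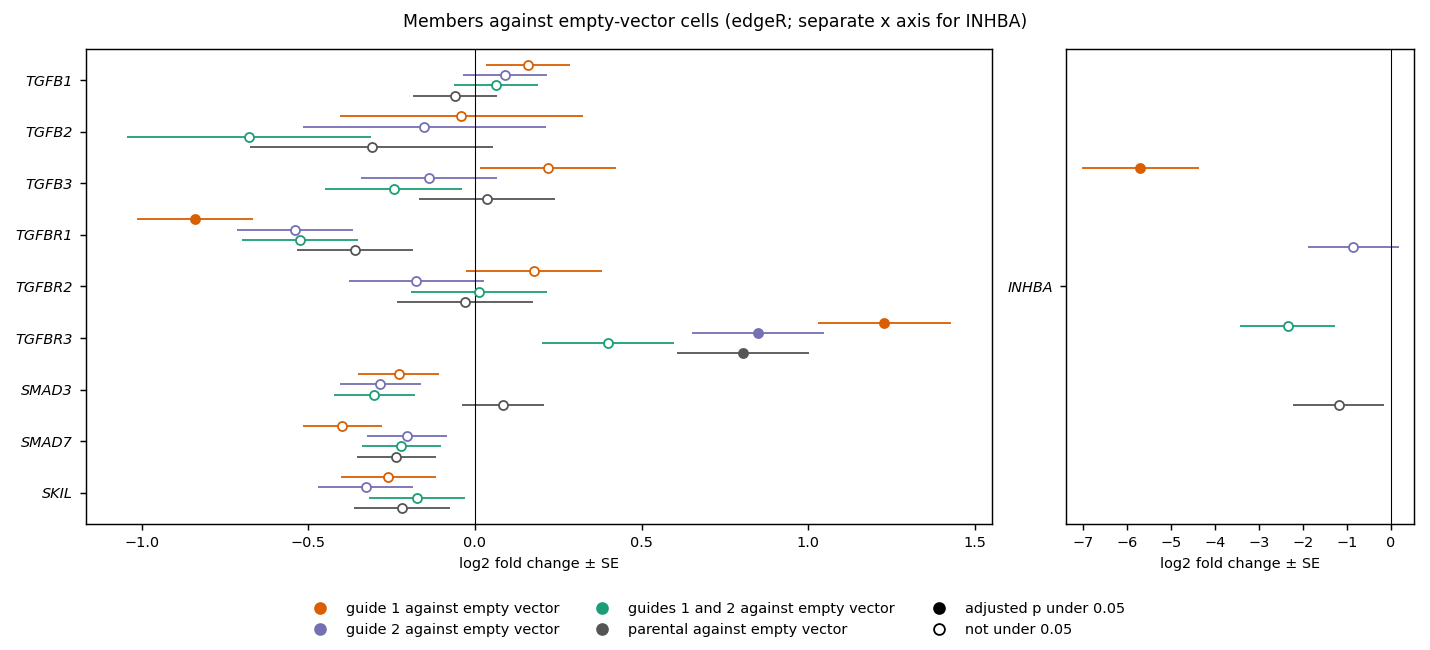
edgeR log2 fold change against empty vector (x axes) ± SE for each gene (y axis), coloured by the group compared; filled points have an adjusted p under 0.05, and INHBA has its own x axis. TGFBR3 lies to the right in all 4 comparisons, from 0.40 with both guides to 1.23 in guide 1, and is filled in 3 of them.

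SMAD3 (ENSG00000166949, chr15:67063763-67195195), which carries the signal of both TGF-beta and activin receptors to DNA, was at 91.7, 107 and 102 CPM in parental replicates 1 to 3, at 95.8, 92.4 and 90.0 CPM in empty vector, at 80.1, 81.7 and 77.3 CPM in guide 1, at 84.3, 58.3 and 87.7 CPM in guide 2, and at 74.1, 77.2 and 77.8 CPM with both guides. All 9 edited libraries (58.3 to 87.7 CPM) were below all 6 unedited ones (90.0 to 107 CPM), and the gap between guide 2 replicate 3 and empty vector replicate 3 was small. Of the tested genes, 0.183% were lower without overlap in the edited libraries and 0.281% did not overlap in either direction. The log2 fold change of edited against unedited libraries was -0.31 (SE 0.0782, adjusted p = 0.0681 by edgeR and 0.00780 by DESeq2). Without guide 2 replicate 2 it was -0.27 (SE 0.0414, adjusted p = 0.000980), and the other 14 fits with 1 library left out did not call it (adjusted p up to 0.177, without parental replicate 3). The values of the single lines against empty vector were -0.23 in guide 1, -0.28 in guide 2 and -0.30 with both guides (SE 0.122 each), and none passed the test with all libraries.

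**Figure D4:**
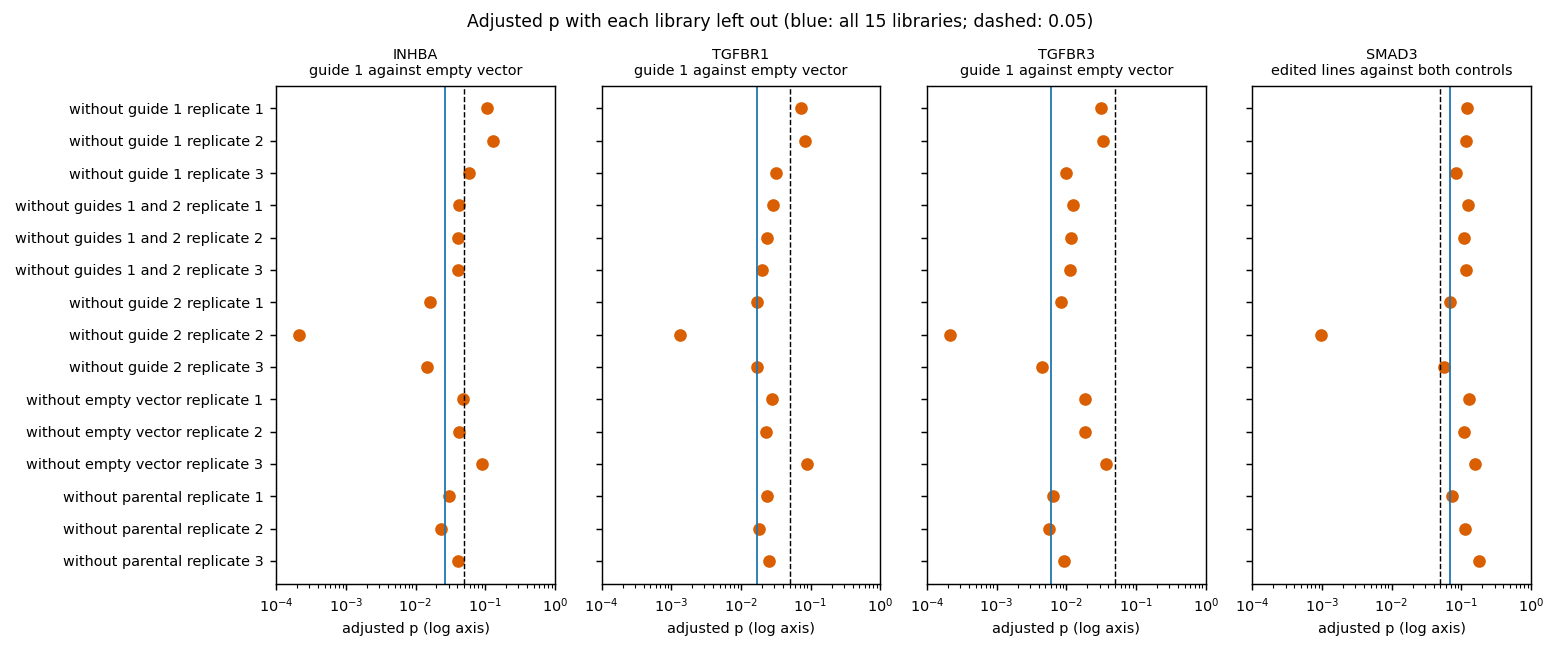
Adjusted p (x axes, log scale) of 4 results with each of the 15 libraries left out in turn (y axis); the blue line is the value with all libraries and the dashed line is 0.05. The TGFBR3 points all lie under 0.05, and the SMAD3 points cross it only without guide 2 replicate 2, at 0.000980.

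The feedback genes were lower in guide 1 than in empty vector without overlap, but neither passed the test. Of all tested genes, 18.1% were lower without overlap in that comparison. SMAD7 (ENSG00000101665, chr18:48919853-48952052), the inhibitory SMAD that is induced by the pathway and blocks its type I receptors, was at 24.5, 22.3 and 21.8 CPM in empty vector replicates 1 to 3 and at 18.7, 19.3 and 14.4 CPM in guide 1. Its parental values were 18.5, 22.2 and 18.7 CPM, its guide 2 values 21.6, 18.6 and 19.8 CPM, and its values with both guides 19.7, 20.1 and 19.9 CPM. The guide 2 libraries and those with both guides also lay below all empty-vector ones, as did 10.9% and 17.2% of tested genes. Guide 1 replicate 3 was the lowest library and empty vector replicate 1 the highest. The log2 fold change of guide 1 was -0.40 (SE 0.119, adjusted p = 0.0694 by edgeR and 0.0146 by DESeq2), and the edgeR adjusted p was 0.0245 without guide 2 replicate 2. SKIL (ENSG00000136603, chr3:170357678-170396835), which encodes SnoN, a repressor of SMAD complexes, lay at 87.3 to 103 CPM in empty vector and at 75.6 to 86.2 CPM in guide 1. SKIL was also lower without overlap in guide 2 and in unedited parental cells, beside 10.9% and 14.1% of tested genes. Its parental values were 80.1 to 86.8 CPM (log2 fold change -0.22 against empty vector, edgeR adjusted p = 0.4375). Its lowest library was guide 2 replicate 2 at 56.7 CPM. The log2 fold changes of SKIL against empty vector were -0.26 in guide 1 (adjusted p = 0.322), -0.33 in guide 2 (adjusted p = 0.236) and -0.17 with both guides (adjusted p = 0.679).

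Counted together, 3 of 10 members passed the test in guide 1 against empty vector, where 5.88% of all tested genes did. With the replicate block it was 2 members and 3.25% of genes, and without guide 2 replicate 2 it was 5 members and 18.1% of genes. In 7 of 10 members the guide 1 and empty-vector libraries did not overlap (2 higher, 5 lower), against 36.2% of all tested genes. The members' median log2 fold change was -0.13, beside 0.02 over all tested genes. In guide 2 against empty vector 1 of 10 passed, where 3.94% of genes did, and 4 of 10 did not overlap (23.1% of genes); without guide 2 replicate 2, 3 members and 14.5% of genes passed. With both guides no member passed by edgeR or DESeq2 (0.962% and 4.33% of genes), 2 had an unadjusted p under 0.05, and 7 of 10 did not overlap (37.7% of genes); without guide 2 replicate 2, 3 members and 6.70% of genes passed. In parental against empty-vector cells 1 of 10 passed (4.37% of genes, and 1 member and 13.9% of genes without guide 2 replicate 2), and 2 of 10 did not overlap (32.1% of genes). A count of 1 of 10 beside 3.94% or 4.37% of all genes is no result about the members. The members and the lists below were chosen with earlier results of these data known. Their counts beside the shares of all genes are therefore a description and no test of the pathway.

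Against parental cells no member passed by edgeR in any edited line, where 0.149% of all tested genes passed for guide 1, 0.0516% for guide 2 and 0.195% with both guides. Without adjustment, p was under 0.05 for 4, 1 and 1 members. DESeq2 called 1, 0 and 0 members, and 4.09%, 0.841% and 2.11% of the genes it adjusted. EdgeR without guide 2 replicate 2 called 3 members in guide 1 (INHBA, TGFBR1 and SMAD3, all lower), 1 in guide 2 (INHBA, lower) and 1 with both guides (SMAD3, lower), beside 14.5%, 5.96% and 2.62% of genes. In edited against all unedited libraries no member passed by edgeR (1.51% of genes), 4 had an unadjusted p under 0.05, and DESeq2 called 4 (5.33% of genes). EdgeR without guide 2 replicate 2 also called 4 (18.0% of genes). The 4 in each case were INHBA, TGFBR1, TGFBR3 and SMAD3, with DESeq2 adjusted p of 0.0268, 0.00841, 0.0409 and 0.00780. Between the edited lines no member passed by edgeR, where 0.0401% of genes passed for guide 1 against guide 2, 0.275% for both guides against guide 1 and 0.149% for both guides against guide 2. Without adjustment, p was under 0.05 for 1, 3 and 1 members. DESeq2 called 1, 1 and 0 members, and 1.17%, 2.34% and 0.861% of genes. INHBA was lower in guide 1 than in guide 2 without overlap (log2 fold change -4.85, SE 1.30, adjusted p = 0.317). TGFBR3 was lower with both guides than with guide 1 alone, without overlap (-0.83, SE 0.198, adjusted p = 0.139). When guide 2 replicate 2 was left out, both were called with both guides against guide 1, TGFBR3 at -0.83 (adjusted p = 0.00723) and INHBA at 3.37 (adjusted p = 0.0170), beside 4.55% of genes. In that fit no member was called between guide 1 and guide 2 (0.162% of genes) or between both guides and guide 2 (1.83% of genes).

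Among genes that store and activate the ligands, 9 of 10 listed were tested, and in guide 1 against empty vector 2 were lower, ITGAV and ITGB6, and none was higher, beside 4.57% of all genes called lower. With the replicate block only the ITGB6 call held (adjusted p = 0.0369). Leaving out guide 2 replicate 2, 4 were lower (ITGB6, FURIN, ITGAV and THBS1) and 1 higher, beside 18.1% of genes called in either direction. With all libraries ITGAV was also lower in guide 2 against empty vector (-0.80, adjusted p = 0.0195), beside 2.73% of genes called lower. It was lower in edited against unedited libraries too (-0.49, adjusted p = 0.0375), beside 1.51% of genes called. With the replicate block the guide 2 call of ITGAV held (adjusted p = 0.0303) and the edited against unedited call did not. ITGB6 (ENSG00000115221, chr2:160099666-160200313), the beta-6 integrin subunit that pairs with alpha-v to free latent TGF-beta, was at 83.3, 82.7 and 189 CPM in empty vector replicates 1 to 3 and at 1.11, 1.22 and 1.31 CPM in guide 1. Its guide 2 values were 0.994, 29.9 and 1.27 CPM, its values with both guides 38.2, 34.9 and 25.9 CPM, and its parental values 22.9, 3.64 and 48.3 CPM. Guide 2 replicate 2 and parental replicate 2 stood apart here as they did for INHBA and CDH1. In guide 1 ITGB6 fell by 6.62 on the log2 scale (SE 1.32, adjusted p = 0.0145). The call was lost without guide 1 replicate 1, guide 1 replicate 2 or empty vector replicate 3 (adjusted p up to 0.0759). In guide 2 it was -3.50 (adjusted p = 0.104), and -6.73 (adjusted p = 0.000752) without guide 2 replicate 2. Unedited parental cells against empty vector gave -2.29 (edgeR adjusted p = 0.251), and -2.30 (adjusted p = 0.0226) without that library. Guide 1 against parental cells gave -4.33 (adjusted p = 0.1585), and -4.32 (adjusted p = 0.00407) without it. With all libraries FURIN was called lower in parental cells than in empty vector (-0.72, adjusted p = 0.0275), beside 2.84% of genes called lower. Of the latent TGF-beta binding proteins LTBP1 to LTBP4, none was called in an edited line against empty vector with all libraries, and without guide 2 replicate 2 LTBP1 was called higher in guide 1 (0.41, adjusted p = 0.0321).

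Of 8 tested genes among other ligands and extracellular inhibitors and 9 among other receptors of the family, none was called in any edited line against empty vector by edgeR with all libraries, and at most 1 of each list, always lower, without guide 2 replicate 2. Their medians in guide 1 were 0.03 and -0.07 on the log2 scale. Of 15 tested genes among other SMADs and negative regulators, 1 was lower in guide 1 and none was higher, a share near the 4.57% of all genes called lower there. In the fit without guide 2 replicate 2, 3 were lower in guide 1 (PMEPA1, SMURF1 and SMAD1), beside 18.1% of all genes called in either direction. In guide 2 against empty vector PMEPA1, ZFYVE9 and SMAD1 were then lower and SMAD6 higher, beside 14.5% of genes. In parental cells against empty vector PMEPA1 was lower, beside 13.9% of genes. The gene called with all libraries was PMEPA1 (ENSG00000124225, chr20:57648392-57711536), a membrane protein that the pathway induces and that retains SMAD2 and SMAD3 from the receptor. It was at 278, 277 and 367 CPM in empty vector replicates 1 to 3 and at 193, 192 and 131 CPM in guide 1, with no overlap. PMEPA1 fell by 0.85 (SE 0.150, adjusted p = 0.00851), and this held in all 15 fits with 1 library left out (adjusted p at most 0.0350). Its values were 198 to 236 CPM in guide 2, 220.3 to 231 CPM with both guides and 209 to 236 CPM in parental cells, all below the empty vector.

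Of 23 tested target genes of the pathway, 4 were lower in guide 1 against empty vector, 4 in guide 2, 2 with both guides and 5 in parental cells, and none was higher in any of these. The shares of all genes called lower in the same comparisons were 4.57%, 2.73%, 0.693% and 2.84%. The list's median log2 fold changes were -0.19, -0.42, -0.22 and -0.52, beside 0.02, 0.03, -0.00 and 0.01 over all tested genes. The parental cells were not edited, so lower target genes than in the empty vector were seen in edited and unedited cells. Against parental cells none of the 23 was called in any edited line, and the medians were 0.14 for guide 1, 0.13 for guide 2 and 0.02 with both guides. Without guide 2 replicate 2, 9 were lower and 1 higher in guide 1 against empty vector, 7 and 1 in guide 2, 7 and 0 with both guides, and 11 and 1 in parental cells, where 18.1%, 14.5%, 6.70% and 13.9% of all genes were called. Against parental cells 8 were then higher and 2 lower in guide 1, 5 and 3 in guide 2, and 2 and 1 with both guides, where 14.5%, 5.96% and 2.62% of all genes were called.

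COL1A1 (ENSG00000108821, chr17:50183289-50201632), the alpha-1 chain of type I collagen, was at 7.77, 8.10 and 15.3 CPM in parental replicates 1 to 3, at 12.3, 13.6 and 20.0 CPM in empty vector, at 6.41, 5.90 and 2.88 CPM in guide 1, at 3.69, 5.96 and 4.29 CPM in guide 2, and at 5.31, 4.28 and 3.75 CPM with both guides. All 9 edited libraries were below all 6 unedited ones, as were 0.183% of tested genes. COL1A1 was the 1 target gene called in edited against unedited libraries with all libraries (log2 fold change -1.42, SE 0.213, adjusted p = 0.00881), beside 1.51% of genes. Without guide 2 replicate 2 its adjusted p was 0.000511. TPM1, TGFBI, COL4A1, COL4A2, TIMP3 and TAGLN were then also called lower and CCN2, CCN1 and ANGPTL4 higher, beside 18.0% of genes. COL1A1 is also on the list of fibroblast markers. It fell by 1.61 in guide 1 (adjusted p = 0.0183), by 1.74 in guide 2 (adjusted p = 0.0166) and by 1.81 with both guides (adjusted p = 0.0294). Each of these 3 calls was lost without empty vector replicate 3. Besides that library, the guide 1 call was lost without guide 1 replicate 2 and the guide 2 call without guide 2 replicate 1 or 3. The call with both guides was lost without any replicate of that line or without empty vector replicate 2. The adjusted p reached 0.0919, 0.0769 and 0.153.

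BHLHE40 (ENSG00000134107, chr3:4979116-4985323), a basic helix-loop-helix repressor, was at 102 to 103 CPM in the empty vector, 38.4 to 66.0 CPM in guide 1, 47.6 to 60.7 CPM in guide 2, 71.4 to 75.4 CPM with both guides and 36.6 to 47.1 CPM in parental cells. The empty vector stood above every other library. It fell by 0.87 in guide 1 (adjusted p = 0.0143), by 0.92 in guide 2 (adjusted p = 0.0131) and by 1.29 in parental cells (adjusted p = 0.00319) relative to the empty vector. Without empty vector replicate 3 the guide 1 and guide 2 calls were lost (adjusted p up to 0.0537 in guide 1). IGFBP3 (ENSG00000146674, chr7:45912245-45921874), a secreted binder of insulin-like growth factors, was at 140 to 144 CPM with both guides against 488 to 678 CPM in the empty vector (-2.0, SE 0.358, adjusted p = 0.0225). That call was lost without any replicate of the line with both guides or without empty vector replicate 2 or 3 (adjusted p up to 0.129). In guide 1 IGFBP3 was at 315 to 566 CPM, overlapping the empty vector. ID3 (ENSG00000117318, chr1:23557918-23559794), an inhibitor of helix-loop-helix factors that BMP signals induce, fell by 0.36 in guide 1 (adjusted p = 0.0204), a call lost without guide 1 replicate 1 or 2 or empty vector replicate 3 (adjusted p up to 0.101). The other target genes called, named only because the counts are small and after their values were seen, were COL4A1 in guide 1, COL4A1 and TGFBI in guide 2, and ID3, IGFBP3, CDKN1A and ANGPTL4 in parental cells.

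**Figure D5:**
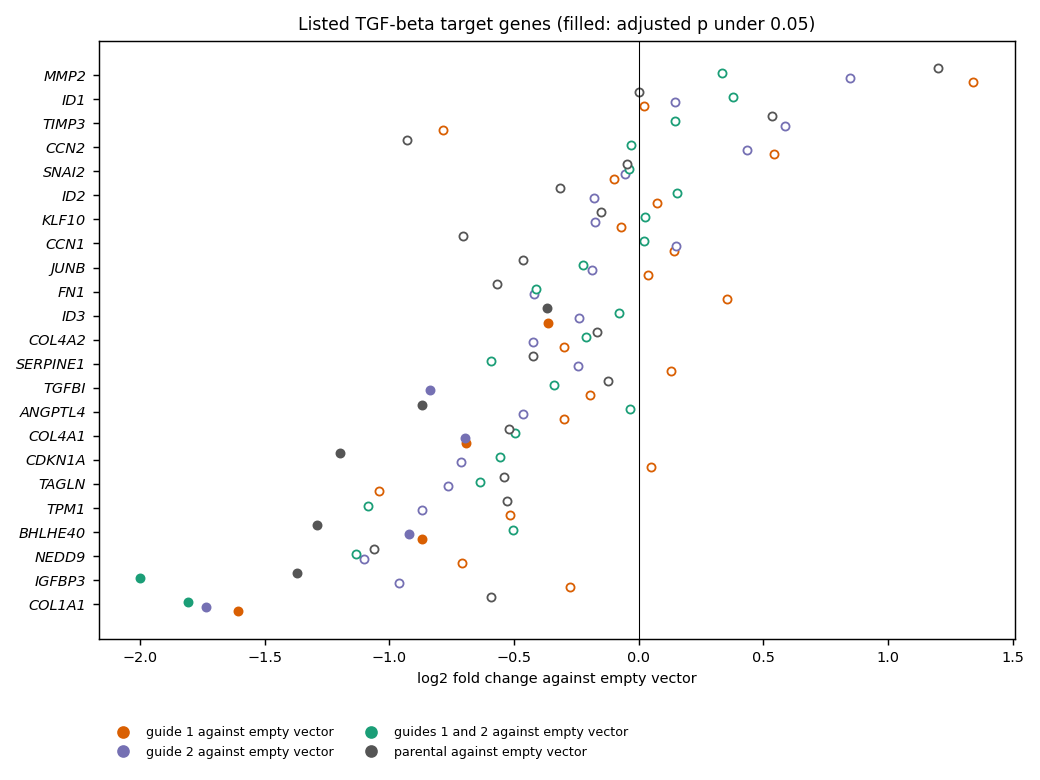
edgeR log2 fold change against empty vector (x axis) of the 23 tested target genes (y axis, sorted by their mean), coloured by the group compared; filled points have an adjusted p under 0.05. All filled points lie below 0, from -2.0 for IGFBP3 with both guides to -0.36 for ID3 in guide 1.

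The genes most like each member in log2 CPM over the 15 libraries were found among 11731 genes, and are given as a description, since the libraries are not independent of each other within a genotype. INHBA ran with MBP (Pearson r = 0.976) and DMD (0.973). TGFBR1 ran with MORC3 (0.980) and MYO5A (0.961), and TGFBR3 with ABRAXAS1 (0.961) and RHOU (0.958). TGFBR2 ran with SLFN5 (0.984) and LAMB2 (0.979). Without guide 2 replicate 2 the INHBA values were 0.975 and 0.970, and those of TGFBR2 0.952 and 0.934. Those of TGFBR1 were then 0.981 and 0.964, and those of TGFBR3 0.964 and 0.987. For SMAD3 the nearest were MEX3B (0.934) and KLHL5 (0.917), for SKIL SSR1 (0.929) and YIPF5 (0.901), and for SMAD7 ROBO4 (0.891) and CCDC92 (0.815). Leaving out guide 2 replicate 2 lowered the SMAD3 values to 0.869 and 0.829 and the SKIL values to 0.842 and 0.750. The SMAD7 values were then 0.909 and 0.8255. Among the TGF-beta ligands, TGFB1 was nearest to FKBP8 (0.870) and MAP2K2 (0.869), TGFB2 to COL8A1 (0.934) and SEC14L1 (0.927), and TGFB3 to ZNF440 (0.871) and SKIC3 (0.862). Without that library the values were 0.868 and 0.932 for TGFB1, 0.898 and 0.886 for TGFB2, and 0.860 and 0.856 for TGFB3.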

How the data were processed

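The authors deposited whole-number read counts per gene, and CPM that equal those counts over the library total to within 4.91e-11; per the submitters' processing notes, reads were handled with Trim Galore 0.6.0 and STAR 2.7.8a on GRCh38. Strand use in counting is not given in the sources used here, so overlapping genes (TGFB2 and TGFB2-AS1) cannot be told apart. Symbols were matched for 60357 of 60721 identifiers. Counts were tested with edgeR 4.0.16 (R 4.3.3): TMM scaling, filterByExpr, genotype means over all 15 libraries with 10 residual degrees of freedom, two-sided quasi-likelihood tests, and Benjamini-Hochberg adjustment over 17457 genes. SE is the absolute log2 fold change over the square root of F. The procedure was tested on simulated data. DESeq2 1.42.0, RLE scaling, no filter, a replicate block and leaving out each library were tried; leaving out guide 2 replicate 2 with parental replicate 2 was added after seeing the data. Same-numbered deviations correlated above 0.1 in every pair only for empty vector and guide 1 (0.137 to 0.280), where the labels' numbers are taken to pair libraries. The replicate block gave each number a common effect over all 15 libraries, also in groups whose same-numbered libraries did not deviate together. Replicate libraries differed beyond sampling noise in 24.6% to 76.8% of genes. Named genes are the members, NF1, up to 4 genes per pathway list with the smallest adjusted p across genotypes, and the 2 genes most correlated with each member. Members and lists were chosen with earlier results of these data known. One gene of the target list is not reported here and was left out of that list's counts and medians. Upstream sequences are from RefSeq (GRCh38.p14), positions from GENCODE 29. Floors of 3 counts cover counting error only.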

Additional observations from a re-analysis of the deposited data

How the results depend on the processing

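Depth was lowest for INHBA, at 7 counts in its lowest library; the other limits were 3 libraries a group and the 2 libraries that stood apart. Of 80 member results (8 comparisons of edited and unedited cells), RLE scaling kept all directions and calls, DESeq2 added 6 calls, no filter on low counts added 2, and the replicate block lost 3 and changed no other. Of 1200 values with 1 library left out, 26 lost a call, 15 gained one and 33 changed sign; the cause was not tested beyond the libraries named. Only for empty vector and guide 1 did every same-numbered pair correlate above 0.1; the mean over all 30 pairs of libraries was -0.0497, and over parental and guide 2 it was -0.485. With the replicate block 2 members were called in guide 1 against empty vector in place of 3, and 0 in guide 2 against empty vector, in parental against empty vector and in the test of any difference. The TGFBR3 calls lost there had adjusted p of 0.0681, 0.0762 and 0.0661. Among the named pathway genes the block ended the calls of COL1A1 with both guides (adjusted p = 0.0838) and ID3 in parental cells (adjusted p = 0.0551), both against empty vector. The genes called over all 17457 in guide 1 against empty vector went from 1026 to 567 with the block, 1937 by DESeq2, and 215 to 3236 with 1 library left out (3236 without guide 2 replicate 2). The block also took guide 2 against empty vector from 687 to 375, both guides from 168 to 69, parental cells from 762 to 400 and edited against unedited cells from 263 to 111; DESeq2 gave 1373, 754, 1604 and 928 there, and 2581, 1196, 2484 and 3213 were called without guide 2 replicate 2.

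The number of members called by DESeq2 was 4 in guide 1 against empty vector (11.1% of all genes), in edited against unedited cells (5.33%) and in the test of any difference (15.3%). It was 1 in guide 1 against parental cells (4.09%), guide 1 against guide 2 (1.17%), and both guides against guide 1 (2.34%). With no filter it was 2 in edited against unedited cells, where 307 genes were called, and 3 in the test of any difference, where 821 were. With 1 library left out the count ran from 1 to 5 in guide 1 against empty vector (215 to 3236 of all genes). It ran from 0 to 3 in guide 2 (170 to 2581) and in both guides (21 to 1196) against empty vector and in guide 1 against parental cells (6 to 2591). In both guides against guide 1 it ran from 0 to 2 (4 to 827). It ran from 0 to 1 for 3 comparisons: guide 2 (2 to 1064 genes) and both guides (4 to 467), each against parental cells, and parental cells against empty vector (145 to 2484). It ran from 0 to 4 in edited against unedited cells (59 to 3213 genes) and in the test of any difference (198 to 4227). Without guide 2 replicate 2 and parental replicate 2, a choice made after seeing the data, it was 5 in guide 1 against empty vector (3857 of all genes). It was then also 5 in guide 1 against parental cells (5085) and in the test of any difference (5907). In guide 2 (3092 genes) and in both guides (1657) against empty vector it was 3. Against parental cells it was 1 in guide 2 (3126 genes) and 2 in both guides (984). It was 4 in edited against unedited cells (4874), and 2 in both guides against guide 1 (1438) and against guide 2 (675).

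The results that changed sign with 1 library left out were uncalled with all libraries. Against empty vector, the log2 fold changes ran from -0.013 to 0.11 for TGFB1 and -0.010 to 0.022 for TGFBR2 with both guides, from -0.25 to 0.21 for TGFB2 in guide 1, and from -0.40 to 0.18 for TGFB2 and -0.34 to 0.046 for TGFBR2 in guide 2. In parental cells they ran from -0.15 to 0.065 for TGFB1, -0.080 to 0.11 for TGFB3 and -0.19 to 0.14 for TGFBR2. Guide 2 against parental cells ran from -0.084 to 0.51 for TGFB2, -3.10 to 1.08 for INHBA, -0.31 to 0.091 for TGFBR2, -0.17 to 0.24 for TGFBR3, -0.038 to 0.12 for SMAD7 and -0.22 to 0.058 for SKIL. Both guides against parental cells ran from -0.11 to 0.19 for TGFBR2, -0.027 to 0.11 for SMAD7 and -0.044 to 0.14 for SKIL, and edited against unedited cells from -0.059 to 0.092 for TGFBR2. Without both libraries that stood apart, guide 2 against empty vector changed sign for TGFB2 (0.20) and TGFBR2 (0.065), guide 2 against parental cells for INHBA (-3.60), TGFBR2 (0.23) and SKIL (0.029), and edited against unedited cells for TGFB2 (0.098).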

Other observations

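FST encodes follistatin, a secreted protein that binds and blocks activins, and was on the list of extracellular inhibitors; it is described here because its values were seen to stand apart. It was at 15.9 CPM in guide 2 replicate 2 and at 0.253 and 0.231 CPM in guide 2 replicates 1 and 3. In guide 1 it was at 0.0957 to 0.215 CPM, with both guides at 0.369 to 0.661 CPM, in empty vector at 0.387 to 1.94 CPM and in parental cells at 0.219 to 2.32 CPM. The library with the highest FST was also the one with the highest INHBA, at 19.9 CPM. CDKN2B, a cell cycle inhibitor listed among the target genes, had 0 counts in each of the 15 libraries, which allows up to 3 counts a library, or 0.038 to 0.065 CPM.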
